A study of Mus musculus with 8 samples.

Results

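The R-spondin and Wnt antagonist genes are 10 mouse genes taken as a fixed list: the ligand genes Rspo1, Rspo2, Rspo3 and Rspo4, the receptor gene Lgr4, the ubiquitin ligase genes Znrf3 and Rnf43, and the antagonist genes Dkk1, Dkk2 and Dkk3. They were listed by name, without a threshold on any value of the site list, but with earlier results of these data known. Rspo2 was on the list because the study tested it as a locus that loses ASH2L, so an ASH2L site there was given by the choice and is described here without being counted as a finding. All 10 were found among the 21938 protein-coding genes of the annotation. The measurement was a list of 6444 places on DNA called as ASH2L sites, given by chromosome, start and end on the mm10 build. The question asked here was which of the 10 genes held such places, and how Rspo2 compared with its relatives.

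ASH2L is a core subunit of the KMT2 complexes, the enzymes that methylate lysine 4 of histone H3. The cells were iMEF, immortalized mouse embryo fibroblasts, in which the floxed endogenous Ash2l gene had lost exon 4 through Cre-ER. A lentivirus supplied human ASH2L fused at its N-terminus to FKBP12F36V and HA tags (FKBP-HA2-ASH2L), and single clones were grown from these cells. All groups shared these alleles, so the untreated cells also lived on the tagged human protein, expressed from an inserted construct. The 4 groups were ASH2L ChIP from untreated cells, ASH2L ChIP after 1 h of dTAG, which sends the fusion protein to the proteasome, and the input DNA of both, each with 2 samples. The labels name an Ash2l antibody, and the study's methods state that antibodies to the HA tag were used. The labels do not say which clone the samples came from.

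The site list used here was drawn up over all samples together and carries no height, read count or sample of origin. It therefore gives no value before and after dTAG, no error between replicates and no depth, and every result below is the place and the width of a site in the pooled list. Whether a given site was called in untreated cells, after dTAG or in both cannot be told from it. No test was run, and the main counts of members stand beside the same count over all protein-coding genes. A gene absent from the list had no called site in the pooled data, which does not show that ASH2L was absent. Among genes that mark the cells, 5 of 10 fibroblast genes had a site within 1 kb of a transcription start (Col1a1, Col1a2, Prrx1, Twist1 and Vim), with 0 of 6 epithelial genes and 0 of 4 blood cell genes. The share over all protein-coding genes was 14.0%, so lists as short as the latter would hold few or none at that share, and 2 of the 4 blood cell genes had a CpG island at all.

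R-spondins are secreted proteins that bind LGR receptors and the transmembrane ubiquitin ligases ZNRF3 and RNF43. Left alone, these ligases remove Frizzled receptors from the cell surface, and R-spondin binding clears the ligases, so that more Frizzled stays and Wnt signals are stronger. Dickkopf proteins work in the other direction: DKK1 and DKK2 bind the Wnt co-receptors LRP5 and LRP6, while DKK3 is the divergent family member.

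Of the 10 genes, 2 had a site centred within 1 kb of an annotated transcription start: Rspo2 and Lgr4. Over all protein-coding genes the share was 14.0%. Widening the window to 3 kb added no member, against 15.4% of all genes. Rspo2 and Lgr4 were also the only members with a site inside the gene body, against 15.8% of all genes. With 50 kb added on either side of the gene, Rspo1 and Znrf3 joined them, which made 4 of 10 against 40.2% of all genes. The body and flank shares were not matched for gene length, whose median was 78.1 kb over the members and 17.4 kb over all protein-coding genes. The other 6 members, Rspo3, Rspo4, Rnf43, Dkk1, Dkk2 and Dkk3, had no site in the body or in these flanks. Without Rspo2, which was on the list for its ASH2L signal, 1 of 9 members had a site within 1 kb, within 3 kb and in the body (Lgr4 each time), and 3 of 9 had one in the body or flanks. With so few genes these counts are not a result about the list. The members differed most at Rspo2, where 4 sites lay within 3 kb of the start, against 1 at Lgr4 and 0 at the other 8, and 0.328% of all protein-coding genes had at least 4. Since a site at Rspo2 was given by the choice, the nearer comparison is with the 3078 genes that have a promoter site, of which 72, or 2.34%, had at least 4. The count depends on how sites are divided: with sites joined across gaps of up to 1 kb, the 4 became 1 domain of 3308 bp, whose centre lay beyond 1 kb, so that Lgr4 was the only member with a promoter site. On joined sites 6 protein-coding genes still had at least 4 within 3 kb, and 52, or 0.237%, had a domain there at least as wide as that of Rspo2. Among genes with a promoter site that share was 1.56%.

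The DNA under 3 of the Rspo2 sites and under the Lgr4 site is printed first, since the sites differ in what they lie on. All are read in the direction of transcription from the mm10 genome, with CpG dinucleotides in capitals. The first is the end of the second Rspo2 site, from the start codon through 94 coding bases into 147 bases of intron (chr15:43169584-43169824, minus strand). The second is the middle 300 bases of the third site (chr15:43168939-43169238) and the next is the fourth site, whole (chr15:43167726-43168006), both intronic. The last is the coding end of the Lgr4 site, again from the start codon (chr2:109918121-109918287, plus strand).

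Rspo2, the second site from the start codon: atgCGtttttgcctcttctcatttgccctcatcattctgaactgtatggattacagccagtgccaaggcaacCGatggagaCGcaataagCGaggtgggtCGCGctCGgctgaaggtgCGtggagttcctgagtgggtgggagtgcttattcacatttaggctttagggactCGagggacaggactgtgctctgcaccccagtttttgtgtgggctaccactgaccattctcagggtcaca
Rspo2, middle of the third site: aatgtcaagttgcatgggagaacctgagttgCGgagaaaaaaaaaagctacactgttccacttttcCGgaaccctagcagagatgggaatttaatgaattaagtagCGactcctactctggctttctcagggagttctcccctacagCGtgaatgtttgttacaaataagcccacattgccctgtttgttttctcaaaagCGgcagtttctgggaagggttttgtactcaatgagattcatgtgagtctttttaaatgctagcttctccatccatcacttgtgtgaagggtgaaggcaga
Rspo2, the fourth site: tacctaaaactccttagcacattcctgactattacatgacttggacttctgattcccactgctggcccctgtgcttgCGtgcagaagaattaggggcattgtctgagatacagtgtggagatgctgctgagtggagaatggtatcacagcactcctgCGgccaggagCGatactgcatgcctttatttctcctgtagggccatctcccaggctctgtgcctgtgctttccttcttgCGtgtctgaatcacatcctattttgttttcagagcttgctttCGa
Lgr4 site, coding end: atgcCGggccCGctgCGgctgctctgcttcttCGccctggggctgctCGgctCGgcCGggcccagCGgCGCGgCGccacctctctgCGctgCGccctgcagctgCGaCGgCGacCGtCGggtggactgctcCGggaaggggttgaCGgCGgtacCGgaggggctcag

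The capitals are denser in the first Rspo2 stretch than in the other two, which are about level. The stretch from the start codon holds 9 CpG in 241 bases, the middle of the third site 5 in 300 and the fourth site 5 in 281. The shorter Lgr4 stretch holds 22 in 167.

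Rspo2 (ENSMUSG00000051920.7) lies on the minus strand at chr15:43020794-43170826 and is 150 kb long, with 3 annotated starts within 8 bp of each other. Distances for it are given from the nearest of these starts to the centre of a site. The first site (chr15:43170431-43171033) was 603 bp wide, was centred 86 bp downstream of the start and ran from 207 bp before the gene to 395 bp into it. It was wider than 92.7% of all sites and than 89.0% of promoter sites, that is, sites centred within 1 kb of any annotated start. Within the gene it lay wholly in the 5′ UTR, over 396 bases. The second site (chr15:43169584-43169965) was 382 bp wide, centred 1043.5 bp downstream, and crossed the end of the UTR, the first coding exon and the start of the intron after it. The third (chr15:43168781-43169396), at 1729.5 bp, was 616 bp wide and wholly intronic, and the fourth (chr15:43167726-43168006), at 2952 bp, was 281 bp wide and also intronic.

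The 4 sites together covered 1882 bp, or 56.9% of the 3308 bp from the first to the last base. The gaps between them were 465, 187 and 774 bp in the order of transcription. All 4 were centred downstream of the start. The remaining 146.9 kb of the gene held no site, nor did the 50 kb on either side, so every site of this long gene was in its first few kilobases.

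**Figure D1:**
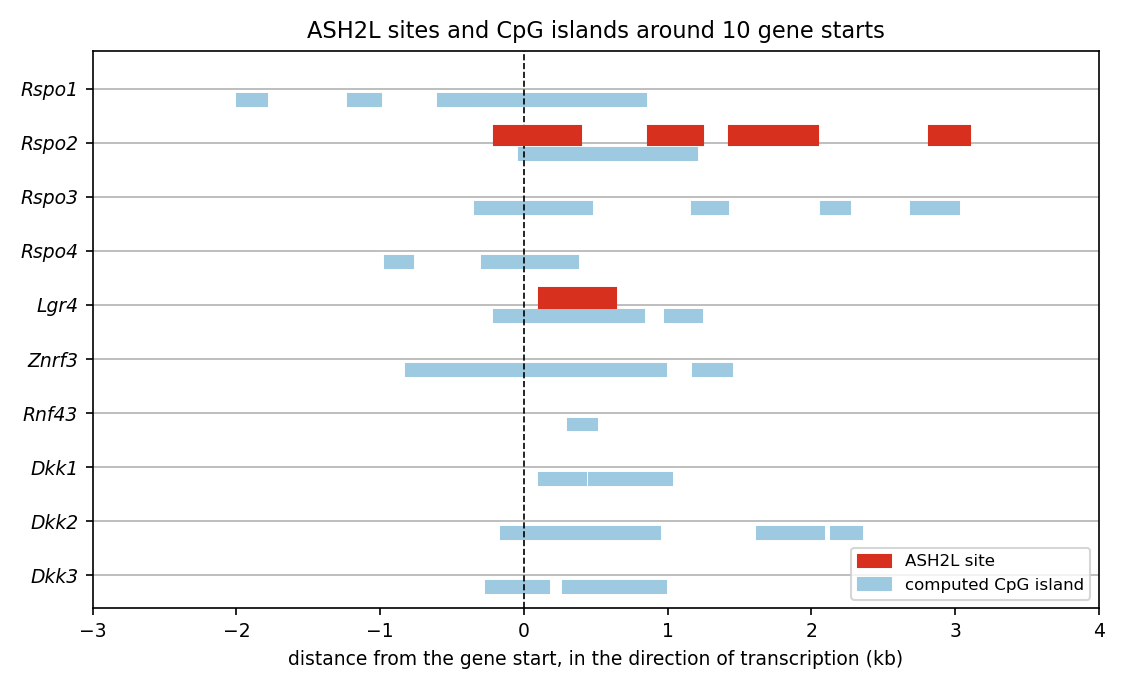
ASH2L sites (red) and computed CpG islands (blue) from 3 kb before to 4 kb after the start of each of the 10 genes, with distance in kb along the direction of transcription. Rspo2 has 4 sites, of which the first and second meet its island, Lgr4 has 1 site inside its island, and the other 8 genes have islands with no site.

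The Rspo2 sites differed from each other in base content. The first had a GC content of 60.4% and a CpG observed-to-expected ratio of 0.79, which compares the CpG count with the one that the C and G content alone would give. They were 55.2% and 0.58 in the second site, 44.6% and 0.36 in the third, and 49.1% and 0.30 in the fourth, so the CpG ratio was lower in each site than in the one before it and GC was lowest in the third. Medians were 65.8% and 0.87 over promoter sites, and 45.5% and 0.19 over sites more than 3 kb from any start, so the first Rspo2 site was below the promoter median and both intronic sites were nearer to the distal median than to the promoter median in both measures. The CpG island at the start (chr15:43169622-43170860, 1239 bp) was met by the first and second sites and ended before the third. Of all sites centred between 1 and 3 kb from a start, 24.3% overlapped an island, against 89.0% of promoter sites.

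Several sites at one gene start were uncommon but not confined to Rspo2. Exactly 1 site within 3 kb was found at 2743 genes. Of the 72 genes with at least 4, 49 had starts more than 3 kb apart, which give a gene more windows. Of the 267 genes with a promoter site whose starts, like those of Rspo2, lie within 10 bp, 12 had at least 4 sites, or 4.49%. The summed width within 3 kb at Rspo2 exceeded that of 97.6% of genes with a promoter site, whose median was 354 bp, whereas the 533 bp at Lgr4 exceeded 74.8% of them. Since Rspo2 was listed for its ASH2L signal, its rank in width is a description and not a finding.

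The genes whose pattern was most like Rspo2 were found from 4 counts, of sites within 1 kb, within 3 kb, in the body and in the flanks. The measure was the sum of the absolute differences in log2 of count + 1, over 1 pooled site list. Purb, a single-stranded DNA-binding transcription factor gene, was the only one with identical counts (distance 0), and its sites summed to 2291 bp. Vim, the gene of the mesenchymal filament protein vimentin, followed at 0.32, then Cited2 and Tbx4 at 0.58 and Nfkb1 at 0.64. Tbx4 is a limb transcription factor gene, Cited2 encodes a CBP/p300-binding regulator and Nfkb1 an NF-kappaB subunit. Summed widths within 3 kb were 975 bp at Vim, 1729 bp at Cited2, 2338 bp at Tbx4 and 2061 bp at Nfkb1. Of these 5, Nfkb1 came closest to Rspo2 in gene length, at 106.9 kb, while Purb was 8.32 kb, Vim 8.90 kb and Cited2 2.46 kb long. The annotated starts spanned 8 bp at Rspo2, 0 bp at Purb and 24 bp at Cited2. They spanned 5442 bp at Vim, 10343 bp at Tbx4 and 97106 bp at Nfkb1, so like counts there can pool windows of separate starts.

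The other R-spondin ligand genes had no site near their starts. Rspo1 (chr4:124986430-125009099) had 1 site in its flanks, 211 bp wide and centred 49.3 kb upstream (chr4:124937028-124937238), but that site was 59 bp from the start of 9930104L06Rik, itself a promoter. Rspo3 (chr10:29452416-29535867) was 142.9 kb from its nearest site, at chr10:29361640-29362034, which lay 189 bp from the start of Rnf146, a ubiquitin ligase gene. Rspo4 (chr2:151842927-151874668) was 101.7 kb from its nearest, which lay 82 bp from the start of Psmf1, a proteasome inhibitor gene. For these 3 ligand genes the nearest ASH2L site was thus at the promoter of another gene, and for Rspo2 alone it was its own.

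Lgr4 (ENSMUSG00000050199.13, chr2:109917647-110014257, plus strand) was the receptor gene of the list. Its site (chr2:109917755-109918287) was 533 bp wide and centred 374 bp downstream of the start, over 366 bases of 5′ UTR and 167 coding bases. It was wider than 90.1% of all sites and 85.1% of promoter sites. Its GC content was 77.7% and its CpG ratio 0.99, both above the first Rspo2 site, with 78 CpG in 533 bp against 43 in 603 bp. Both genes thus had a called site over the start codon, the second site at Rspo2 and the only one at Lgr4. The 2 sites in the flanks of Lgr4, 241 and 240 bp wide, were 147 bp from the start of Lin7c and 201.5 bp from the start of Ccdc34, its neighbours on either side.

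Neither ligase gene had a site at a start. Znrf3 (chr11:5276324-5444847) had 1 site in its flanks, 370 bp wide and 45.9 kb upstream (chr11:5490524-5490893). It was the only one of the 9 member sites more than 3 kb from any annotated start. It held 1 CpG and no island, had a GC content of 41.4%, and the nearest start was that of the processed pseudogene Gm11962, 4737.5 bp away. Rnf43 (chr11:87662722-87735539), with 8 annotated starts, was 552.4 kb from its nearest site, near Ska2.

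The Dickkopf genes had no site in their bodies or flanks. Dkk3 (chr7:112116017-112159057) was 134.7 kb from a site, which lay by the start of Usp47, a deubiquitinase gene. Dkk2 (chr3:132085292-132180304) was 424.6 kb and Dkk1 (chr19:30545863-30549665) 885.8 kb from a site. Among all genes with no promoter site, 8.03% were farther from a site than Dkk1, 14.4% farther than Rnf43 and 19.1% farther than Dkk2. The median was 123.9 kb over those genes and 138.8 kb over the 8 members among them, of which 5 were above the former. These 8 genes thus lay on both sides of that median, with Dkk1 toward the far end. All 8 have a CpG island, and the median was not taken over genes matched for that.

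**Figure D2:**
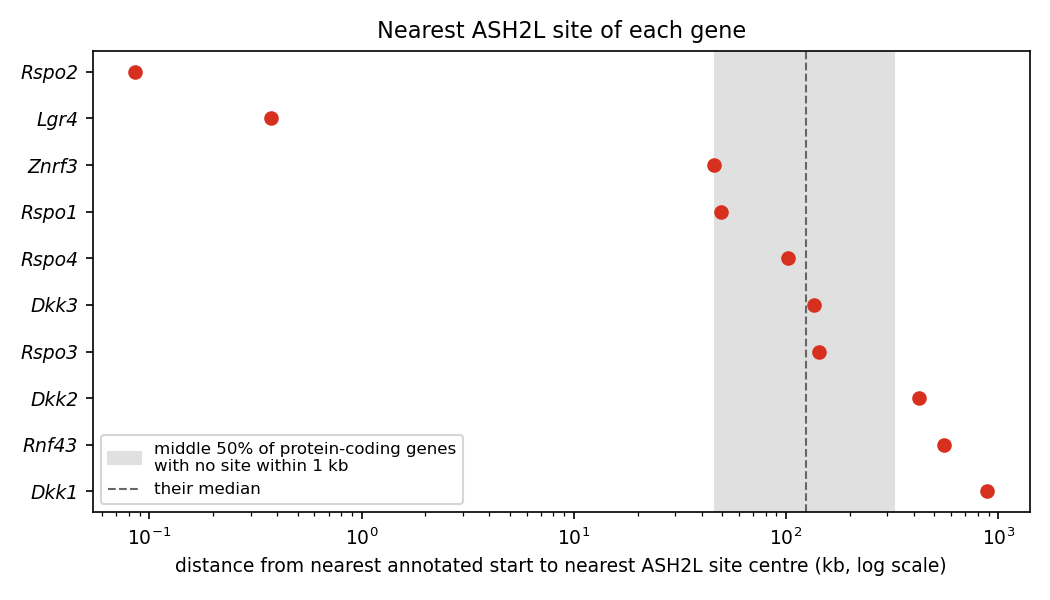
Distance in kb, on a log scale, from the nearest annotated start of each gene to the centre of the nearest ASH2L site. Rspo2 and Lgr4 lie below 1 kb, the other 8 lie from 45.9 kb (Znrf3) to 885.8 kb (Dkk1), and the grey band and dashed line give the middle 50% and the median of protein-coding genes with no site within 1 kb.

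Of the 9 sites in bodies and flanks, 5 were in bodies and 4 in flanks, and 3 of the 4 flank sites belonged to promoters of other genes. The median width was 370 bp over the 9, against 268 bp over all sites, with the 3 widest at Rspo2 and Lgr4. Without the 4 Rspo2 sites the median of the other 5 was 241 bp, below that of all sites. An island overlapped 6 of the 9, or 4 of the 5 without Rspo2, against 51.9% of all sites. Those 4 were all promoter sites, of which 89.0% overlapped an island over the whole list. Genes that have a start within the flanks of a member were also looked up, as a description without a background share. Around Rspo1, Cdca8 and 9930104L06Rik had a promoter site and Gnl2 had none. Kremen1, the gene of a Dickkopf receptor beside Znrf3, had none, nor did Angpt4 beside Rspo4, nor Supt4a, Tspoap1 and Hsf5 beside Rnf43. Usp47 beside Dkk3 had 2 and Prkg1 beside Dkk1 had 1, in both cases at another of the neighbour's starts, outside the flanks of the member.

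All 10 members had a CpG island within 1 kb of a start, against 73.4% of all protein-coding genes. Of the 10, 2 had a promoter site, against 19.0% of all genes with an island. With a minimum length of 500 bp, 9 members had one, since the only island of Rnf43 was 204 bp long. With the strictest definition (500 bp, GC over 55%, CpG ratio over 0.65) it was 7. The share over all genes is not given for these stricter definitions.

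The members differed in CpG count at the start, where Rspo2 was below 3 members and above 6. The 1 kb centred on the gene start held 61 CpG at Rspo2, 92 at Rspo1, 58 at Rspo4 and 53 at Rspo3. It held 86 at Lgr4, 136 at Znrf3 and 28 at Rnf43, and from 31 to 36 at the 3 Dkk genes. The medians were 41 over all protein-coding genes, 71 over genes with a promoter site and 52 over genes with an island and no promoter site. Rspo1 and Znrf3, the most CpG-rich members, thus exceeded the median of genes with a site and had none, while Rspo2 was below it with 4.

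Across all genes the share with a promoter site went up with the CpG count. It was 1.62% for 0 to 9 CpG, 4.69% for 10 to 29, 11.6% for 30 to 49, 19.3% for 50 to 69, 24.3% for 70 to 89 and 37.3% for 90 or more. The 3 Dkk genes and Rnf43 fell in classes where a site was infrequent. Rspo2, Rspo3 and Rspo4 fell in one class, 1 with a site and 2 without. Even in the class of Rspo1 and Znrf3 most genes had no site.

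**Figure D3:**
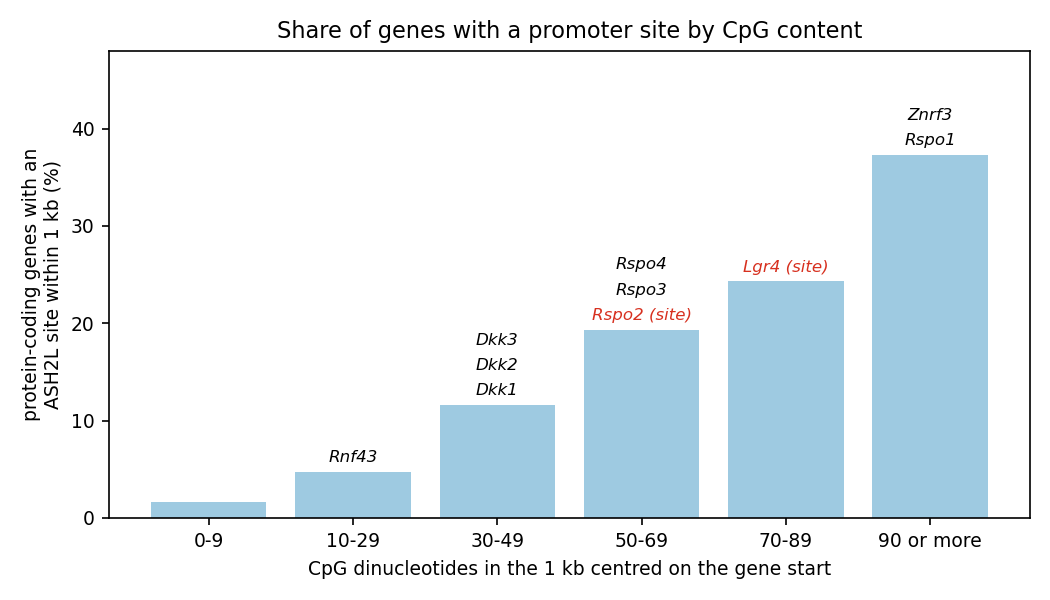
Percent of protein-coding genes with an ASH2L site within 1 kb of a start (bars), by the number of CpG in the 1 kb centred on the gene start, with each member's name above its class and the 2 with a site in red. The share climbs from 1.62% to 37.3%, and Rspo1 and Znrf3 stand without a site in the highest class.

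The RefSeq promoter table of the same build matched 6 of the 10 genes. The 250 bases before the start are shown for 3 of them (chr4:124986180-124986429, chr2:109917397-109917646 and chr3:132085042-132085291, all on the plus strand). They set an R-spondin gene with many CpG and no site beside Lgr4, which has a site, and beside a Dickkopf gene with fewer CpG and no site. CpG are again in capitals.

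Rspo1 promoter, no site: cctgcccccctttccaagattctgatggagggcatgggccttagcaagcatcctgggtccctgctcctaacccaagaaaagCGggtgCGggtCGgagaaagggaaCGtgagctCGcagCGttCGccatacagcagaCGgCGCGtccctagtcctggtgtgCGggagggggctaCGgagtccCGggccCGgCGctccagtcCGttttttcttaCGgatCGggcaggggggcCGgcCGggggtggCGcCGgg
Lgr4 promoter, site downstream: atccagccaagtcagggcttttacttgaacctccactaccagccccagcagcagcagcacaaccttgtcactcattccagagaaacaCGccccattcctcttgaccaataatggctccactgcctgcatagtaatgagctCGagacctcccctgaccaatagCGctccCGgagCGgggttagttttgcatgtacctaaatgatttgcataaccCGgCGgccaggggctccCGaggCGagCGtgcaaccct
Dkk2 promoter, no site: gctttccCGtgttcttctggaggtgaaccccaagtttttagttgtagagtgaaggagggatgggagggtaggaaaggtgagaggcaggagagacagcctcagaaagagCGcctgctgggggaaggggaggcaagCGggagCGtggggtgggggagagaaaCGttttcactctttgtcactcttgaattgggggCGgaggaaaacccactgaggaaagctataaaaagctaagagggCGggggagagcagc

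These windows held 22 CpG at Rspo1, 10 at Lgr4 and 7 at Dkk2, against 24 at Rspo4, 6 at Dkk1, 8 and 2 at the Rnf43 entries and a median of 6 over the 32851 entries. The site-bearing Lgr4 thus had fewer CpG upstream of its start than Rspo1 and Rspo4, and its dense stretch was downstream, under the site.

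Short motifs were searched on both strands. In the 5 sites within member bodies, the E-box CACGTG was in the first and the third Rspo2 sites, both at the upper end of the range in width, and in the latter it lay outside the stretch printed. It was in 8.85% of the 407 sites of 500 to 700 bp and in 6.14% of the 2557 sites in the range of all 5 (281 to 616 bp). None of the 5 held a TCF/LEF motif (CTTTGAT or CTTTGAA, in 8.56% of the 2557 sites) or an AP-1 motif (TGAGTCA or TGACTCA, 7.94%). None held an ETS (CCGGAAGT, 5.87%), SP/KLF (CCCCGCCCC, 7.31%), EGR (GCGGGGGCG or GCGTGGGCG, 4.26%) or YY1 motif (AAGATGGCG, 2.82%). In the 250-base promoter windows, a TCF/LEF motif was at Dkk1, as in 7.48% of all entries, the SP/KLF motif at Rspo4, as in 10.4%, and the E-box also at Rspo4, as in 6.02%. A match is a match of letters and not a bound site.

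The rest of the Wnt pathway was taken from lists by role, 88 genes outside the 10. A promoter site was found at 15 of them, or 17.0%, and a site in the body or flanks at 42, or 47.7%, both close to the shares over all genes. A CpG island lay at the starts of 85 of the 88, and of all genes with an island 19.0% had a promoter site. The counts by role below are descriptions of short lists. They are to be read against the 14.0% of all genes and the 19.0% of genes with an island, and no difference between roles was tested. Of 28 genes of the intracellular pathway 7 (25%) had a promoter site, with the widest sums within 1 kb at Tcf7l2 (730 bp), the transcription factor at the end of the pathway, Gsk3b (644 bp), the kinase that marks beta-catenin for destruction, and Tnks2 (593 bp), a tankyrase that destabilizes Axin. Of 15 receptor and co-receptor genes 4 had one, Fzd7 (719 bp), Lrp6 (442 bp), Ryk (224 bp) and Fzd1 (205 bp). Fzd7 and Tcf7l2 were the only genes of these lists that, like Rspo2, had 4 sites within 3 kb, with sums of 1666 and 1551 bp against 1882 bp.

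Of 19 Wnt ligand genes 2 (10.5%) had a promoter site, Wnt5a with 2 sites summing to 486 bp and Wnt10b with 1 of 376 bp. Of 16 other secreted or membrane antagonist genes 1 had one, Tpbg (479 bp), which encodes a membrane protein that dampens Wnt signals. Of 6 direct target genes 1 had one, Bambi (251 bp), a pseudoreceptor gene. Lgr5 and Lgr6, the other R-spondin receptor genes, had no promoter site, nor did the 2 genes of Wnt secretion. Lgr5 had 3 sites in its body and 2 in its flanks, the nearest 5.68 kb from a start, and Lgr6 had 0 in either and was 602.1 kb from its nearest site.

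**Figure D4:**
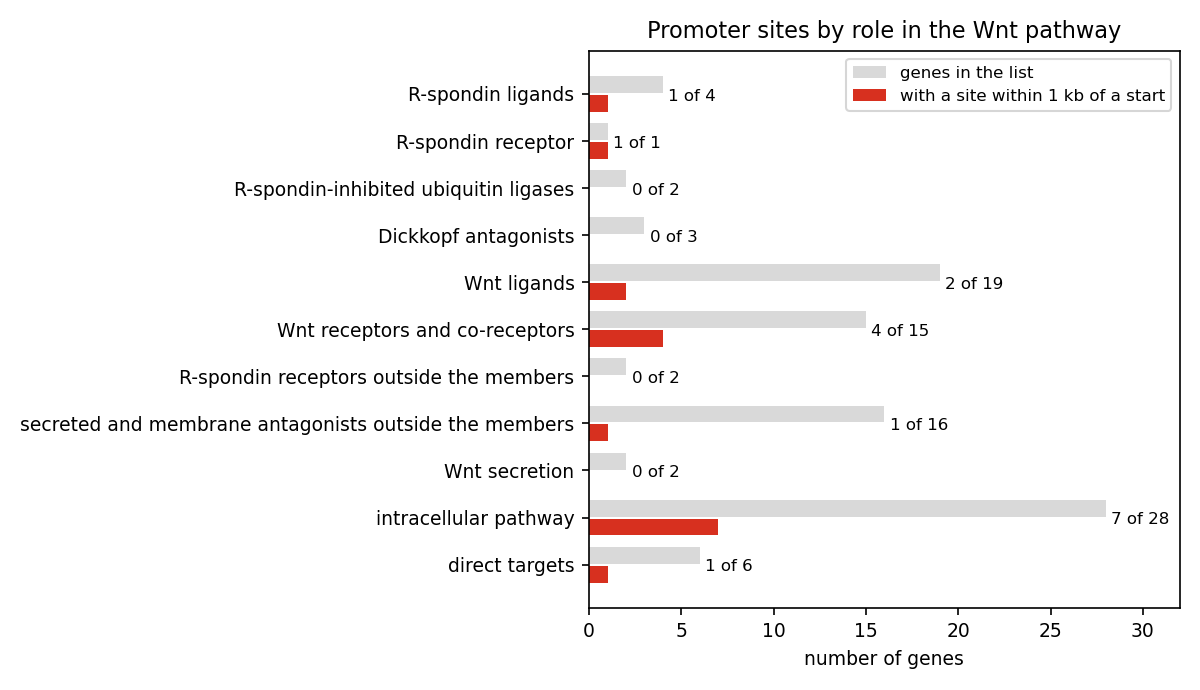
Number of genes in each list (grey) and number with an ASH2L site within 1 kb of a start (red), by role in the Wnt pathway, the 10 members forming the top 4 classes. The intracellular genes (7 of 28) form the longest list and the Dickkopf genes (0 of 3) one of the shorter. The share over all protein-coding genes was 14.0%, and 19.0% over those with a CpG island.

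Rspo2 lies on chromosome 15, which differed from the other chromosomes in the number of sites away from starts. It carried 2.36 such sites per Mb, against 0.817 on the others. Promoter sites were found at 18.1% of the 785 genes on chromosome 15 and at 13.9% of the genes elsewhere. At least 4 sites within 3 kb were found at 5 of the 785 genes, or 0.637% (Ext1, Rbfox2, Rictor, Rspo2 and Trps1), against 0.317% elsewhere. Sites centred between 1 and 3 kb from a start, the class of 3 of the 4 Rspo2 sites, numbered 5.10 per 100 genes on chromosome 15 and 2.94 elsewhere. The chromosome 15 values include Rspo2 and its own sites. Whether the chromosome has a part in the Rspo2 pattern was not tested.

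Within 1 Mb of its start Rspo2 had 11 sites, of which 4 were its own and 4 lay more than 3 kb from any start. Leaving out each gene's own sites, the number was 9 at Rspo4, 8 at Znrf3, 7 at Rspo2, 6 at Rspo1, Lgr4 and Dkk3, 5 at Rnf43, 3 at Dkk2 and 1 at Rspo3 and Dkk1. The corresponding distal number was 0 at Rspo3, 1 at Rspo1, Rspo4, Rnf43 and Dkk1, and 2 at Lgr4, Znrf3, Dkk2 and Dkk3. The median over all genes was 1, and 85.2% of genes had fewer than Rspo2. The nearest distal site to Rspo2 was 276.9 kb away, 200 bp wide. Its neighbour Eif3e, a translation initiation factor gene, had a promoter site of 540 bp, and Emc2, on the same side, one of 280 bp, so the next protein-coding genes upstream of Rspo2 also had called sites at their starts.

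Distal sites were unevenly spread around Rspo2, with 3.6 per Mb over the 5 Mb on the side of lower coordinates, 0.6 over the next 5 Mb above it and 4.2 over the 5 Mb after that. Rspo3 lies on chromosome 10, which also had many such sites (1.77 per Mb), but they were dense from 75 to 95 Mb above Rspo3 and 1.2 and 0.4 per Mb over the 5 Mb on its lower and upper side. The genome mean was 0.877 per Mb.

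**Figure D5:**
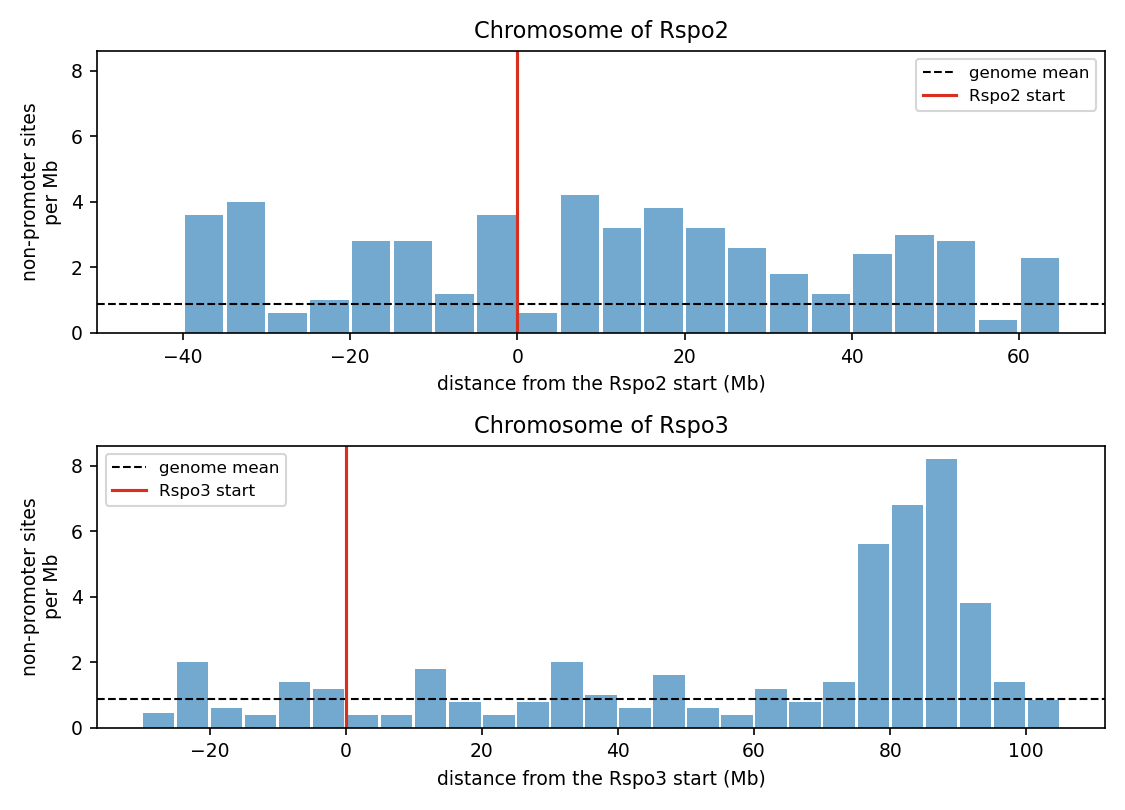
ASH2L sites more than 3 kb from any annotated start, per Mb, in bins of 5 Mb along the chromosomes of Rspo2 (top) and Rspo3 (bottom), by distance in Mb from the gene start in the direction of increasing coordinate. Most bins of the Rspo2 chromosome exceed the genome mean of 0.877 per Mb (dashed), whereas Rspo3 lies far from the dense bins of its chromosome.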

How the data were processed

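The table of ASH2L sites that the authors deposited and that was used here gives chromosome, start and end in mm10, pooled over all samples, with no count, signal or p-value. The study also lists a table of ASH2L sites changed after 1 h of dTAG, which was not analysed here. The submitters' processing notes name BWA, SAMtools, MACS2, deepTools and DESeq2, and their thresholds were not used here. Starts were read as 0-based, and coordinates are printed 1-based. The 6428 sites on the 21 assembled nuclear chromosomes were used and 16 others left out. Transcription starts were all those of GENCODE M21 on the same build, which is an older release than the one the study names. A promoter site was centred within 1 kb of a start and a distal site more than 3 kb from any. CpG islands were computed as joined 200 bp windows with GC over 50% and a CpG observed-to-expected ratio over 0.6. Python 3.11.15, NumPy 2.4.6 and pandas 2.3.3 were used. Tested on simulated data, all 300 genes given a planted site were recovered. The members and lists were chosen with earlier results of these data known. All 10 members are named, as are up to 3 genes per pathway list with the largest summed width within 1 kb, the 5 genes most like Rspo2 and genes with a start in the flanks. Fzd1, the marker genes, the genes beside a nearest site and those on chromosome 15 were named beyond that rule, after their values were seen. Intervals, replicate errors and depth cannot be had from such a table. The other antibodies of the study were not analysed here.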

Additional observations from a re-analysis of the deposited data

How the results depend on the processing

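Counts were recomputed for 9 results under 55 alternatives (51 planned and 4, RefSeq starts, chosen after the data were seen), and 48 stayed within 1.5 times the reported count. With sites joined across gaps of up to 1 kb, the 4 Rspo2 sites became 1 domain centred beyond 1 kb, so 1 member rather than 2 had a promoter site and Rspo2 had 1 site within 3 kb and 1 in its body and flanks. Within 1 kb Rspo2 had 1 site. With 100 kb flanks the members had 15 sites in bodies and flanks. Distal sites near Rspo2 numbered 2 within 0.5 Mb and 21 within 5 Mb. No paired analysis was possible because the list has no values per sample, and neither leaving out a replicate nor a stricter peak threshold could be run.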
